A study of Drosophila melanogaster with 3 samples.

Results

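Peaks of Nf-YB on the dot chromosome of Drosophila melanogaster, chromosome 4, are described here. They are all 239 peaks that the authors' pooled list of 30000 places on chromosome 4, chosen by chromosome alone and not by any measured value. Of these, 57 are also in the authors' optimal list of 6221 peaks. That list holds exactly the 6221 peaks of highest signal in the pooled list, so membership of it is the same as a cut in pooled rank. The other 5 major arms (2L, 2R, 3L, 3R and X) hold the remaining pooled peaks and serve for comparison. The samples were embryos collected between 0 and 24 h, of both sexes, from a transgenic strain in which Nf-YB carries a C-terminal GFP tag that an anti-GFP antibody precipitated. There were 3 biological replicates in 1 group, and chromatin had been sheared by sonication to fragments of 200 to 800 bp. No untagged or untreated group was analysed here. Replicate 3 stood apart on this chromosome, with 40 peaks among its 6221 highest, against 70 and 76 in replicates 1 and 2, so values are given per replicate. Whole embryos mix all cell types, so a weak peak in many cells and a strong one in a few cannot be told apart. The antibody targeted the tagged protein only, and a peak does not by itself show direct contact of that protein with DNA.

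NF-Y is a factor of 3 subunits that contacts DNA at the CCAAT box. Its subunits B (Nf-YB in the fly) and C fold like histones. Chromosome 4 is the smallest Drosophila chromosome. It is known for heterochromatin that carries HP1 and the chromosome-specific protein POF across much of its length, for many transposon remnants, and for genes that are nonetheless transcribed. Among its genes are several regulators of embryonic development. Ensembl lists 118 genes on its 1348131 bp, of which 80 are protein-coding.

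The sequences at 8 summits show what the strongest and some weaker members look like. Each is 101 bases of dm6 on the plus strand, centred on the summit, from the RefSeq copy of the assembly. Capitals mark CCAAT or its reverse complement ATTGG, and GAGAG or its reverse complement CTCTC, the sequence known to be bound by the GAGA factor. The windows are chr4:989501-989601 at toy, chr4:704474-704574 at ey, chr4:844587-844687 at fd102C, chr4:1097803-1097903 in an intron of sv, chr4:508620-508720 in an intron of zfh2 and chr4:834572-834672 at the promoter of Sox102F. They lie under 6 of the 7 highest peaks. To these are added chr4:423481-423581, the highest intergenic peak, and chr4:67165-67265 at RpS3A, a ribosomal protein gene that shows a promoter peak of ordinary rank.
toy: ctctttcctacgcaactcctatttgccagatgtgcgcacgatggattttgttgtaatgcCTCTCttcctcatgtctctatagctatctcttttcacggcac
ey: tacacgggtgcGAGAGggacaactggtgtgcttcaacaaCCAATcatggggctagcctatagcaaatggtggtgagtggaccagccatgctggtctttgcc
fd102C: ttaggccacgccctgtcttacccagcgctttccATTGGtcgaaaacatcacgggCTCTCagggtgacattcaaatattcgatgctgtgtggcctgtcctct
sv: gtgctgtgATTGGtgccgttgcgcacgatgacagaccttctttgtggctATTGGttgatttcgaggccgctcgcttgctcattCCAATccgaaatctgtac
zfh2: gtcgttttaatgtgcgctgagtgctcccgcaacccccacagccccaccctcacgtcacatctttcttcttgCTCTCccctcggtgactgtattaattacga
Sox102F: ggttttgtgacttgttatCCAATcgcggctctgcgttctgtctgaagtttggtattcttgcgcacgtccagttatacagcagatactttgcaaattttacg
lncRNA:CR43437: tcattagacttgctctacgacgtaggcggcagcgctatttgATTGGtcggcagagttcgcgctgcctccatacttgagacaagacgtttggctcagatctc
RpS3A: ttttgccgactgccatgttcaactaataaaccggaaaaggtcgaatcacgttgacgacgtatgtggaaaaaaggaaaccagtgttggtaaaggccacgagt

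The window at toy held CTCTC and no CCAAT, that at ey held both elements, and that at fd102C held ATTGG and CTCTC. The sv intron window held ATTGG at 2 positions and CCAAT at 1. The RpS3A window held neither. A match of these letters is a description of the sequence and not a mapped binding site.

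The strongest chromosome 4 peaks lay at developmental regulators, and they ranked among the strongest of the genome. Peaks are given by their rank in signal, the authors' own value per peak, counted over all arms, with rank 1 the highest. A signal is given as a multiple of the median of the optimal list. The distance of a summit to the nearest transcription start site (TSS) is negative upstream. The coordinates are dm6.

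The 2 Pax6 genes of eye development, toy and ey, held the highest peaks. The peak at toy (FBgn0019650, chr4:989038-990166) had its summit at position 989551 in intergenic sequence, at -174 bp from the TSS, and a signal of 140 times the median. It ranked 2 in replicate 1, 2 in replicate 2 and 2 in replicate 3. The peak at ey (FBgn0005558) had its summit at 704524, within the gene and at -127 bp from an internal TSS, with a signal of 100.5 times the median. Its rank was 10 in the pooled list, and 4, 4 and 17 in replicates 1, 2 and 3. Both stood apart from the other members, since the next highest had 43.1 times the median and ranked 77. It lay in an intron of Sox102F at 807982, at -635 bp from the nearest TSS. Sox102F (FBgn0039938), a gene of the Sox family of HMG-box factors, kept ranks of 78, 68 and 72 in the replicates at that summit.

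The forkhead gene fd102C (FBgn0039937) had a promoter peak at 844637, at -108 bp, with 42.2 times the median and rank 81. In the replicates it ranked 61, 61 and 123. The gene sv (shaven, FBgn0005561) encodes a Pax2-type factor, and its intron peak at 1097853 lay at -672 bp from the nearest TSS. That peak had 37.4 times the median, rank 92 in the pooled list and ranks 95, 70 and 101 in replicates 1, 2 and 3. An intron of zfh2 (FBgn0004607), a gene of a zinc finger and homeodomain protein, held the peak at 508670, 6860 bp from the TSS, with 31.5 times the median and rank 109. It ranked 130, 117 and 92 in the replicates. None of these 6 peaks ranked lower than 130 in any replicate, and replicate 3 gave the lowest place at ey, fd102C and sv but the highest at the zfh2 intron.

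Further down the same genes came again. Promoter peaks of Sox102F at -229 bp, of sv at -473 and -147 bp and of zfh2 at -214 bp ranked 163, 173, 301 and 409. Introns of Sox102F and zfh2 held the peaks ranked 193, 416 and 441, and a further promoter peak of Sox102F ranked 377. The promoter peak of sv at -473 bp shared its interval with the intron peak ranked 92. The Sox102F intron peak ranked 193, at -839 bp, shared its interval of 2204 bp with those ranked 77 and 377. Replicate 3 gave no summit within 100 bp of the one ranked 193. The promoter of fuss (FBgn0039932), of the Ski and Sno family of transcriptional cofactors, held rank 425 at -174 bp. Introns of pan (FBgn0085432), the TCF factor of Wnt signalling, and of dati (FBgn0262636), a zinc finger gene, held ranks 492, 521 and 537. The remaining 2 of the 20 highest members were near non-coding genes, at rank 261 between dati and lgs with lncRNA:CR43437 as the nearest TSS, and at rank 467 in an intron of lncRNA:CR44024.

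**Figure D1:**
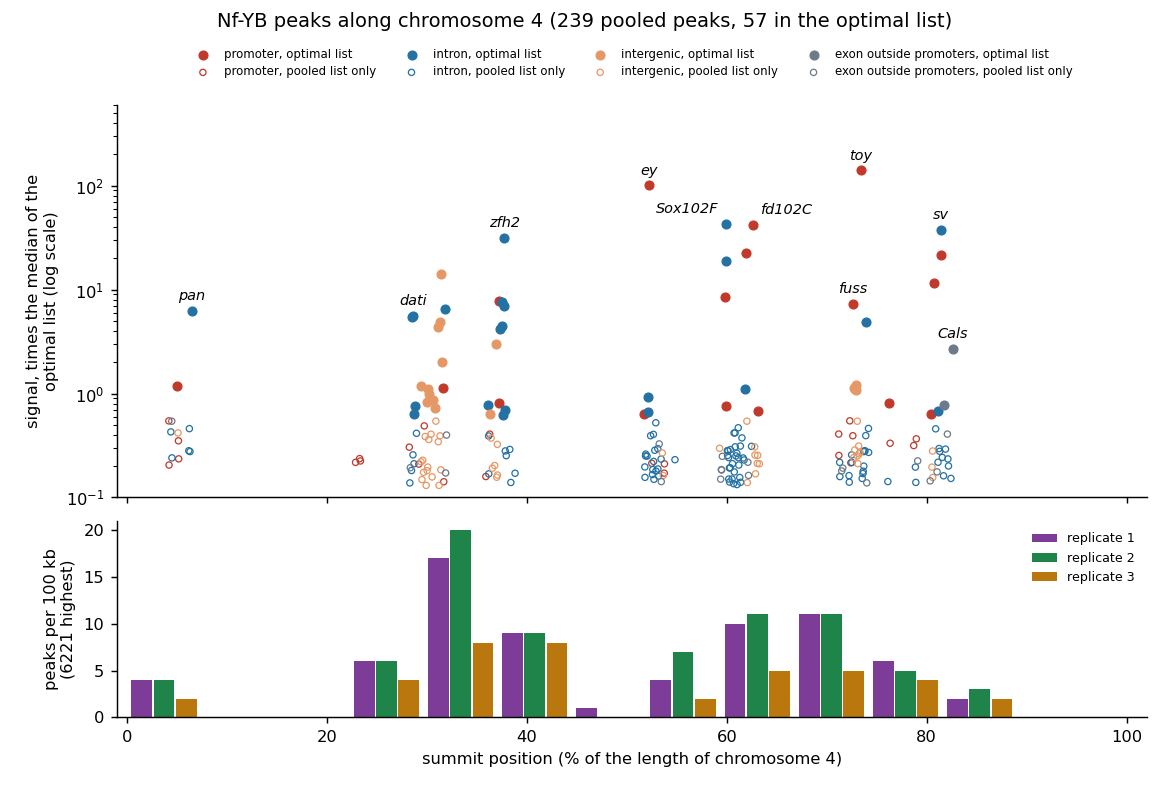
Upper panel, signal of each of the 239 pooled peaks as a multiple of the optimal list's median (log scale) against the summit's position in percent of the chromosome length, filled where the peak is in the optimal list and coloured by annotation class; names mark genes nearest to high peaks. Lower panel, peaks of chromosome 4 per 100 kb among the 6221 highest of each replicate; the bin with most of the dati to lgs gap has 17, 20 and 8 peaks in replicates 1, 2 and 3, and replicate 3 has 8 in the next bin, with zfh2, too.

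Peaks gathered at a few loci. The 57 optimal summits formed 12 runs in which neighbours lay less than 10000 bp apart, and their median gap was 2628.5 bp. They lay in 50 distinct intervals, because some intervals hold several summits. Inside a gene or at its promoter, zfh2 held 9 optimal peaks of 14 pooled ones, Sox102F 6 of 38, sv 5 of 17, ey 4 of 25, dati 4 of 12 and toy 2 of 13. The gap between dati and lgs, 41351 bp long and the longest between genes of the chromosome (chr4:395606-436956, counting protein-coding genes), held 12 optimal peaks of 32. In that gap the 6221 highest peaks of replicates 1, 2 and 3 had 16, 15 and 6 peaks. The gene lgs, at the right end of the gap, encodes a coactivator of Wnt signalling and had no promoter peak in the pooled list. Another 4 optimal peaks of 12 lay between fuss and toy, and none of these 4 was among the 6221 highest peaks of all 3 replicates.

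**Figure D2:**
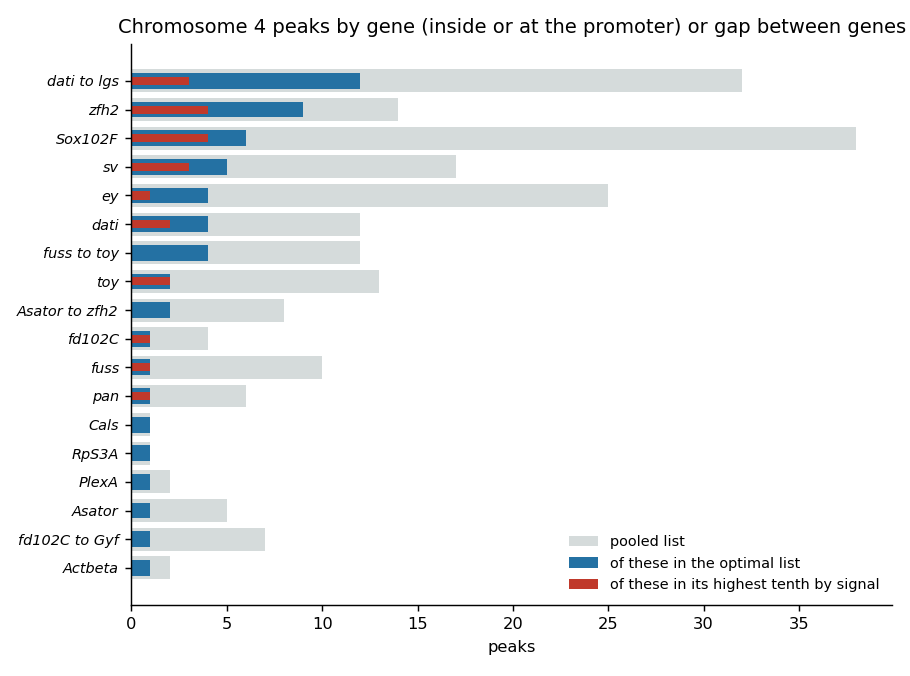
Number of peaks (horizontal axis) at each gene, inside it or at its promoter, or in each gap between neighbouring genes, for loci with at least 1 optimal peak; grey bars are the pooled list, blue bars its optimal peaks and red bars those among the 622 highest. The gap from dati to lgs has the most optimal peaks, 12, while Sox102F and zfh2 have the most among the 622 highest, 4 each.

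Between these loci lay long stretches without optimal peaks. No optimal summit fell between positions 87476 and 384736, 297260 bp that contain 21 whole protein-coding genes, nor between 510020 and 697714, 187694 bp that contain 15. The pooled list added 7 and 5 peaks to them. No pooled peak of any rank lay between 87476 and 308284, a stretch of 220808 bp with 16 protein-coding genes, and the same stretch measured 220790, 220851 and 143366 bp in the whole lists of replicates 1, 2 and 3. On each other arm, all of them longer, the longest stretch between pooled summits exceeded this, from 226109 bp on 3R to 1771953 bp on 3L. After the last chromosome 4 summit, at 1113326, the remaining 234805 bp and 10 whole protein-coding genes had no pooled peak either. The other arms ended with 6519 bp (3R) to 2880247 bp (3L) after their last pooled summit. Counted in whole windows of 100 kb, 3 of 13 on chromosome 4 (23.1%) held no pooled peak, against 6.81% to 21.0% on the other arms, and in replicate 3 the count was 2 of 13. Empty windows were thus not much more frequent than on the arm where they were commonest. These stretches were picked out after their values were seen.

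The high ranks of chromosome 4 peaks were a feature of a subset. Among the 622 highest peaks of the optimal list (10% of all optimal peaks) were 22 of the 57 on chromosome 4, or 38.6% (exact Clopper-Pearson 95% interval 26.0 to 52.4, counting error only). On the other arms the share ran from 8.12% on 3L to 10.6% on 3R. In the replicates, 24 of 70, 23 of 76 and 17 of 40 chromosome 4 peaks among the 6221 highest were also among the 622 highest, which is 34.3%, 30.3% and 42.5%, or 35.7% ± 6.24 (SD, n = 3). The 22 peaks are not independent sites, since they lie in 18 intervals and in 9 of the 12 runs of optimal summits. This cut at the 622 highest was chosen with the values known, so the shares are a description.

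The pooled ranks had a gap. Of the 57 optimal peaks, 28 ranked up to 1371, none ranked between 1500 and 2400, where 900 peaks of all arms lie, and 29 ranked from 2424 on. These bounds, and the split at rank 1500 used below, were set after the gap was seen. The gap was not in the replicates, where 8, 7 and 3 of the 57 peaks ranked between 1500 and 2400 in replicates 1, 2 and 3. The median rank was 2424 for chromosome 4 and 3119.5 for the other arms. Over all pooled peaks the medians were closer, 13912 for chromosome 4 and 15007 for the rest. Wide peaks lay at toy, ey, Sox102F, sv and zfh2. Of the 57 on chromosome 4, 13 (22.8%, interval 12.7 to 35.8) were 1000 bp or wider, against 2.71% on the other arms, and the widest, at Sox102F, covered 2204 bp. Several summits share 1 such interval, so wide intervals are counted once per summit, and the width limit was also chosen with the values known.

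**Figure D3:**
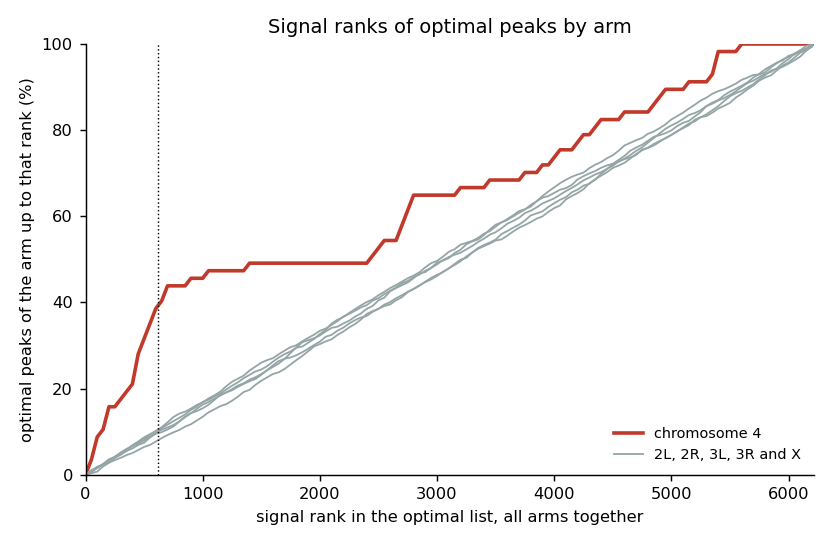
Share of an arm's optimal peaks (vertical axis, percent) that rank at or above the signal rank on the horizontal axis, for chromosome 4 (red) and the other 5 arms (grey); the dotted line marks rank 622. Chromosome 4 reaches 38.6% at that line, where the other arms lie between 8.12% and 10.6%, and its curve, drawn from pooled ranks, is flat between ranks 1500 and 2400.

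Membership of the optimal list was about as common on chromosome 4 as elsewhere. It covered 57 of 239 pooled peaks, or 23.8% (interval 18.6 to 29.8), against a background of 20.7% over all arms and 19.5% to 21.7% on the single other arms. Just inside the list, the lowest chromosome 4 member was an intron peak of zfh2 at rank 5596. Just outside it were the promoter peak of lncRNA:sphinx at rank 6525 and the promoter peak of ci, the Gli-type effector of hedgehog signalling, at rank 6535 and -82 bp.

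The replicates shared the strong members almost completely and the weaker ones in part. Taking the 6221 highest peaks of each replicate and calling summits within 100 bp shared, 33 of 57 optimal chromosome 4 peaks were found in all 3 replicates, 57.9% (interval 44.1 to 70.9), against a background of 54.6%. A further 18 were found in 2 replicates, 6 in 1 and none in 0. Of the 28 with ranks up to 1500, 27 were found in all 3, and on the other arms the share in that range was 97.8%. Of the 29 that ranked lower, 6 were found in all 3, 26 in replicate 1, 22 in replicate 2 and 10 in replicate 3, while on the other arms 40.9% of such peaks were found in all 3. Without replicate 3 the count in both others was 50 of 57, or 87.7%. With the whole lists of 30000 it was 51 of 57 in all 3, so most missing peaks were present at lower rank.

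Replicate 3 stood apart from the others on this chromosome. It had 177 chromosome 4 peaks in its whole list and 40 among its 6221 highest, against 296 and 70 in replicate 1 and 282 and 76 in replicate 2. Of its 40 peaks, 34 (85%) were shared with replicate 1 and 34 (85%) with replicate 2. Replicates 1 and 2 shared 57 peaks, which is 81.4% of the 70 and 75% of the 76. On this chromosome replicate 3 thus differed in its number of peaks, while the peaks it had were shared at least as often. Over all arms, mean GC content in the 101-bp summit windows of the 6221 highest peaks was 37.3% in replicate 3, against 41.0% and 41.7% in replicates 1 and 2. Its part in the lower chromosome 4 count was not tested. The peaks of PlexA and Actbeta show the range: PlexA ranked 5332, 15047 and 2612 in replicates 1, 2 and 3, and Actbeta 3610, 20787 and 7410. A peak between fuss and toy at 982975, rank 2424 in the pooled list, was found in replicate 3 only.

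**Figure D4:**
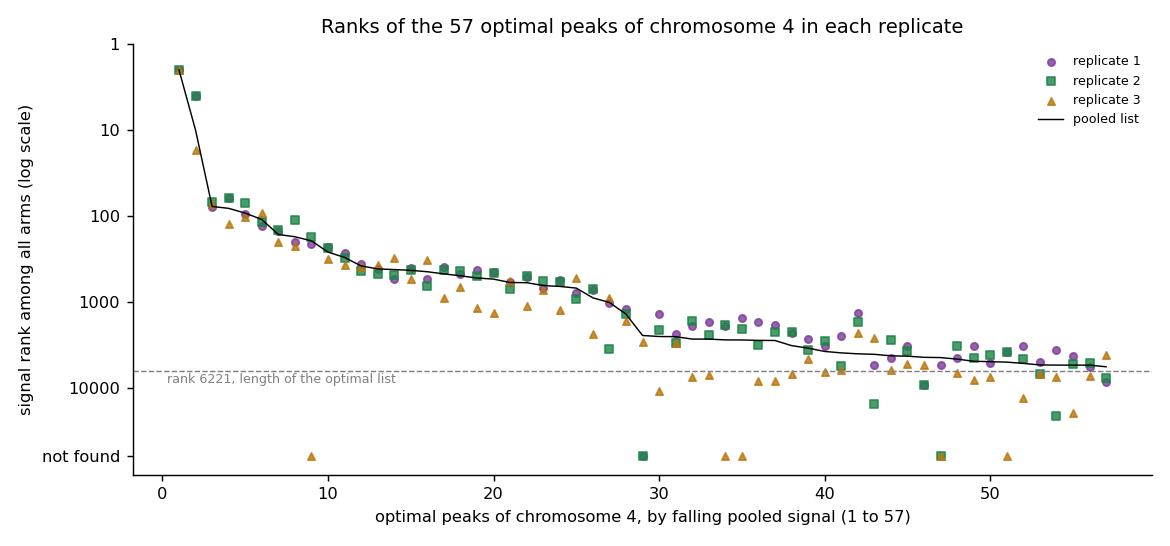
Signal rank over all arms (vertical axis, log scale, 1 at the top) of the 57 optimal chromosome 4 peaks in each replicate and in the pooled list, ordered by pooled signal; the lowest place on the axis holds peaks with no summit within 100 bp in that replicate and the dashed line marks rank 6221. Ranks stay close together in the left part, where 27 of 28 peaks are above the line in all 3 replicates, and scatter on the right, where 10 of 29 are above it in replicate 3.

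Peak density did not separate chromosome 4 from the other arms. With 6221 peaks per replicate it was 52.6, 57.1 and 30.05 peaks per megabase on chromosome 4 in replicates 1, 2 and 3, against 46.5, 46.4 and 46.7 on the other arms together. The mean difference was 0.0295 peaks per megabase with an SD of 14.6 over 3 replicates, and replicates 1 and 2 lay above every other arm while replicate 3 lay below all 5 (two-sided exact sign-flip permutation test over 3 replicates, p = 1). In the whole lists, which reach weaker peaks, the difference was -35.8 peaks per megabase, lower in 3 of 3 replicates. With 0.5 times as many peaks it was 6.34, higher in 3 of 3, so the direction followed the length of the list. With 3 replicates this test cannot give a p below 0.25, so no difference tested here could pass 0.05. Each comparison below was tested the same way, as 1 of 7.

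The promoter share on chromosome 4 was below that of the other arms in each replicate. Summits within 500 bp of a TSS made up 31.4%, 26.3% and 35.0% on chromosome 4 in replicates 1, 2 and 3, against 45.8%, 43.7% and 46.6% on the other arms together. The mean was 30.9% ± 4.36 on chromosome 4 and 45.4% ± 1.50 on the other arms (SD, n = 3 each), lower in 3 of 3 replicates and lower than each single arm in every replicate (exact permutation p = 0.25, adjusted p = 0.292). Introns held 37.9% ± 3.16 on chromosome 4 and 32.2% ± 0.876 on the others, higher in 3 of 3 replicates (exact permutation p = 0.25, adjusted p = 0.292), though below X in each replicate. Intergenic peaks, which were not among the 7 tests, made up 30%, 27.6% and 20% on chromosome 4, against 19.5%, 20.2% and 17.8% on the other arms. The annotation differs too: promoter windows cover 10.7% of chromosome 4 and 12.6% to 14.9% of the other arms, introns cover 42.6% and 36.5% to 43.3%, and the median protein-coding gene spans 10090 bp against 1986 to 2521 bp. The part of gene length in these shares was not tested.

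In the optimal list 17 of the 57 chromosome 4 peaks were at promoters, 22 in introns and 16 intergenic. These are 29.8% (interval 18.4 to 43.4), 38.6% (26.0 to 52.4) and 28.1% (17.0 to 41.5), against 45.2%, 32.7% and 19.0% on the other arms. The intron and intergenic intervals include the share of the other arms. Another 1 was in a coding exon of sv and 1 in the 3' UTR of Cals, the calsyntenin gene, at rank 1003. The counts that follow were not made for the other arms. Of the 17 promoter summits 11 were upstream, with a median position of -108 bp. Among the 622 highest were 9 of the promoter peaks, 11 of the intron peaks and 2 of the intergenic ones. Protein-coding genes hosted 21 of the 22 intron peaks.

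Both motif shares at the summits were above those of the other arms in each replicate. CCAAT, on either strand within 50 bp of the summit, was present at 32.9%, 35.5% and 32.5% of chromosome 4 peaks in replicates 1, 2 and 3, against 27.2%, 26.6% and 26.1% on the other arms, a mean of 33.6% ± 1.65 and 26.6% ± 0.576 (SD, n = 3 each). It was higher in 3 of 3 replicates and above each other arm in every replicate (exact permutation p = 0.25, adjusted p = 0.292). Of all windows of 101 bp, 19.6% on chromosome 4 and 19.4% to 19.8% on the other arms contain it. GAGAG was present at 27.1%, 25% and 37.5% of chromosome 4 peaks, against 19.6%, 20.4% and 15.7% on the other arms. Its mean was 29.9% ± 6.68 on chromosome 4 and 18.5% ± 2.52 on the others, again above each arm in every replicate (exact permutation p = 0.25, adjusted p = 0.292), whereas of all windows 9.07% on chromosome 4 and 11.2% to 11.8% elsewhere contain it. In the whole replicate lists the mean difference was 2.12 percentage points for CCAAT, against 6.98 over the 6221 highest, and 0.153 for GAGAG, against 11.3, with GAGAG higher on chromosome 4 in 1 of 3 replicates. Without replicate 3 the GAGAG difference was 6.10, and with 100 bp to each side of the summit it was 6.80 and higher in 2 of 3 replicates.

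In the optimal list CCAAT was at 36.8% of chromosome 4 peaks (interval 24.4 to 50.7) and 26.9% of those of the other arms. GAGAG was at 29.8% (18.4 to 43.4) and 17.9%. The counts by class and of both or neither element were not made for the other arms, so they show no trait of chromosome 4. By class, CCAAT was present at 9 of 17 optimal promoter peaks of chromosome 4, 7 of 22 intron peaks and 5 of 16 intergenic ones. GAGAG was present at 7, 8 and 2 of them. Both elements occurred at 5 of the 57 summits, the highest at ey, and neither at 24. Up to rank 1500, CCAAT was at 46.4% of the 28 chromosome 4 peaks and 36.1% of those of the other arms, and below that rank at 27.6% of 29 and 24.0%. The intervals of the chromosome 4 shares, 27.5 to 66.1 and 12.7 to 47.2, overlap, and each includes the share of the other arms. For GAGAG the shares up to rank 1500 were 39.3% (interval 21.5 to 59.4) on chromosome 4 and 26.6% on the other arms. Below that rank they were 20.7% (7.99 to 39.7) and 15.1%. Both of these intervals, too, include the share of the other arms.

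Chromosome 4 as a whole is poor in GC and rich in repeats, while the windows at its high peaks lay on the opposite side of the other arms in each replicate. Its GC content is 35.2%, against 41.6% to 42.6% on the other arms, while its summit windows had 43.8%, 43.3% and 42.6% GC in replicates 1, 2 and 3, against 41.0%, 41.7% and 37.3% on the other arms. The mean difference was 3.25 ± 1.88 percentage points (SD over 3 replicates), above each other arm in every replicate (exact permutation p = 0.25, adjusted p = 0.292). Repeat-masked bases make up 28.1% of the chromosome and 18.1% to 21.3% of the other arms. In summit windows they made up 10.4% ± 1.03 on chromosome 4 and 19.9% ± 1.72 on the others (SD, n = 3 each), lower than each arm in every replicate (exact permutation p = 0.25, adjusted p = 0.292). Of the 57 optimal windows 40 had no masked base. Both relations turned round in the whole replicate lists, where the difference, chromosome 4 minus the others, was -2.39 percentage points for GC and 1.10 for masked bases.

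**Figure D5:**
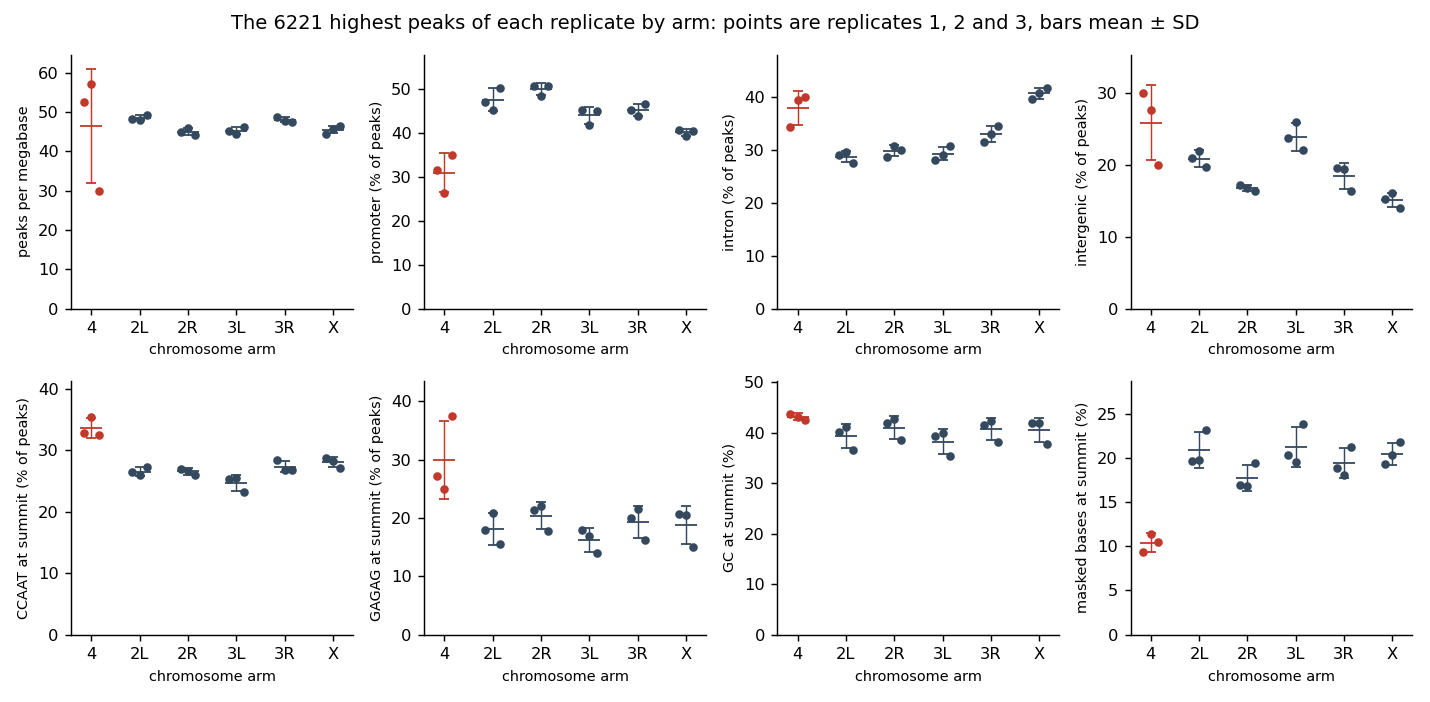
Peaks per megabase, and shares of peaks or of bases in percent, for the 6221 highest peaks of each replicate on chromosome 4 (red, left in each panel) and on the other 5 arms; points are replicates 1, 2 and 3 from left to right and bars are mean ± SD. Chromosome 4 lies below every other arm for promoters and masked bases and above every other arm for CCAAT and GAGAG in all 3 replicates, while its density spreads from 30.05 to 57.1.

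Transposons appeared among the weaker members only. Annotated transposons cover 25.1% of chromosome 4, against 4.06% to 7.75% of the other arms. None of the 57 optimal summits lay in one, which allows up to 6.27% (exact 95% limit), and 8 of 6164 optimal summits of the other arms did (0.130%). In the pooled list 25 of 239 chromosome 4 summits did, 10.5% (interval 6.88 to 15.1), against 0.208% on the other arms. All 25 were outside the optimal list, the highest at rank 7983, and 5 of them were found in the whole list of each replicate. INE-1, a short element known to be abundant on this chromosome, overlapped 19 of the 25. How the authors treated reads that map to several copies is not given in the sources used here, so these positions are uncertain. This comparison was made after the values were seen.

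Per gene, the promoter peak count of chromosome 4 was below that of every other arm, with an interval that just includes the background. Of its 80 protein-coding genes 10 had an optimal promoter peak (12.5%, interval 6.16 to 21.8), against a background of 21.6% over all arms and 19.7% to 23.2% on the single other arms. In the replicates 13.8%, 15.0% and 12.5% of chromosome 4 genes had one, against 21.2%, 19.0% and 22.7% of genes on the other arms. The genes were toy, ey, sv, zfh2, Sox102F, fd102C, fuss, PlexA, Actbeta and RpS3A. In the whole pooled list 21 of the 80 had a promoter peak (26.3%), against a background of 48.1% over all arms. Chromosome 4 thus lay further below in percentage points in this longer list, where the background itself was higher.

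All but fuss belong to 1 of 4 lists of chromosome 4 genes, which were written with earlier results of these data known and so give no independent support. Of 12 developmental transcription factors and partners, 6 had an optimal promoter peak (toy, ey, sv, zfh2, Sox102F and fd102C), or 50%. The interval, 21.1 to 78.9, just includes the background of 21.6% over all arms. In replicates 1, 2 and 3, 7, 8 and 6 of the 12 had one. Counting peaks inside the gene, pan and dati made it 8. The 4 without any were ci, the homeobox gene onecut, lgs and Mitf, a factor of the MITF and TFEB family. The list does not hold every transcription regulator of the chromosome. NfI and pho are on no list and had no pooled peak inside the gene or at its promoter. Peaks inside or nearest to these 12 genes were 34 of the 57, and 18 of the 22 highest. This count takes in peaks in the gaps beside the genes. The 12 genes make up 25.1% of the protein-coding gene spans, but that share leaves the gaps out and is not a like measure.

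In the other lists too, the share of genes was within counting error of the background of 21.6%. Of 10 signalling, guidance and adhesion genes 2 (20%, interval 2.52 to 55.6) had an optimal promoter peak, the semaphorin receptor gene PlexA at rank 4010 and Actbeta, an activin-type ligand gene, at rank 5354. Those without included PlexB, Eph, Ephrin, myo, Crk and Zyx. None of 9 synapse, excitability and muscle genes had one (exact upper limit 33.6%), among them CaMKII, unc-13, Syt7, mGluR, Gat and the giant muscle protein gene bt, although the tau-tubulin kinase gene Asator had an intron peak at rank 4213. On the housekeeping list, which also holds the lipid carrier gene apolpp, 1 of 16 genes, RpS3A, had one (6.25%, interval 0.158 to 30.2). It lay at rank 2502 and -8 bp, with replicate ranks of 2306, 2988 and 2988. Those without included eIF4G1, ATPsynbeta, Rad23, Taf3, Hcf and gw. Of 33 protein-coding genes on no list 1, fuss, had one (3.03%, interval 0.0767 to 15.8). That interval lies below the background, but these genes are what the lists, written with results known, left over.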

How the data were processed

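Nf-YB ChIP-seq was carried out on 3 biological replicates of whole embryos. Per the file headers, the authors called peaks per replicate against 1 control alignment, called a pooled list, and derived the optimal list by the irreproducible discovery rate. The build is dm6, per the labels. No source used here names the aligner, the caller or the threshold: they are not given in the sources, and read depth is unknown. The deposited signal value ranked peaks within a list, and the deposited −log10 q-value served as an alternative ranking.

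Genes and transposons came from Ensembl release 115. Summits were classed in the order promoter (within 500 bp of a TSS), UTR, exon, intron and intergenic, and motifs were searched in 101-bp windows. Lower-case bases of the RefSeq copy were taken as repeats. Of 298 start codons on chromosome 4, 296 read ATG. Replicates were compared over their 6221 highest peaks with an exact sign-flip permutation test and Benjamini-Hochberg adjustment over 7 results (Python 3.11.15, numpy 2.4.6, scipy 1.17.1), checked on simulated data. No pair of replicates was identical. Named are the 20 highest members, the highest optimal peak at listed genes, up to 6 listed genes without one, members beside the threshold and genes with 3 or more optimal peaks. Members and lists were chosen with earlier results of these data known.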

Additional observations from a re-analysis of the deposited data

How the results depend on the processing

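Differences are chromosome 4 minus the other arms. Of 85 values recomputed under other settings, 6 changed direction. A further 4 moved out of the range set around their main value. These 4 are among the shares and counts that have no direction to change. The density difference of 0.0295 peaks per megabase became -35.8 with whole replicate lists, 6.34 with 0.5 times as many peaks and -5.28 with shared intervals counted once, and leaving out 1 replicate gave -5.28 to 8.38. With whole lists the repeat difference was 1.10 and the GC difference -2.39 percentage points. Among results that kept their direction, sizes varied: from -17.5 to -9.49 points for promoters, 4.28 to 8.16 for introns, 2.12 to 12.6 for CCAAT and 0.153 to 40.3 for GAGAG, the lowest 2 motif values in whole lists and the 40.3 with 1 summit per run. The share of optimal peaks found in all 3 replicates was 89.5% with whole lists and 57.9% to 87.7% without 1 replicate. The whole pooled list gave 21 of 80 genes with a promoter peak, against 48.1% of genes over all arms. Taking the highest summit of each run, added after seeing the data, put 75% of 12 runs among the 622 highest, against 16.3% of runs on the other arms. Runs held on average 4.75 summits on chromosome 4 and 2.56 elsewhere, so on chromosome 4 the highest was taken from more summits. The part of this number of summits in the 2 shares was not tested. With 3 replicates the sign-flip test could not pass the threshold in any comparison. Read depth is unknown.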
